A study of Mus musculus with 6 samples.

Results

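The 10 genes described here encode the catalytic and shared core subunits of the complexes that methylate lysine 4 of histone H3 (H3K4). They were taken by name from the GENCODE M21 annotation of the mouse genome build GRCm38, and all 10 were found among 21853 protein-coding genes. ChIP-seq had been used to map Tex10 and trimethylated H3K4 (H3K4me3) at day 2 in mouse PGCLCs, primordial germ cell-like cells, which are made in culture as a model of the founders of the germ line. The cells were untreated and of the 129Sv/J strain, and their Tex10 protein carried an HA tag at its C-terminus, so that an antibody against HA read its sites. There were 2 HA-Tex10 samples, 2 H3K4me3 samples and 2 samples of input DNA. Each antibody had 1 deposited list of genomic intervals, not split by sample, with a start and an end but no height or score, so no value has an error over replicates and sequencing depth is unknown.

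H3K4 methylation is laid down by large multi-protein assemblies known as COMPASS or MLL complexes. Each is built around 1 catalytic enzyme with a SET domain. Kmt2a and Kmt2b act mainly at promoters of developmental genes, Kmt2c and Kmt2d are best known for monomethylation at enhancers, and Setd1a and Setd1b account for much of the trimethylation at active promoters. All of these enzymes share a core of Wdr5, Rbbp5, Ash2l and Dpy30, without which their activity is low. H3K4me3 marks the start sites of active and poised genes, so the genes here encode the machinery for the same mark that was mapped. Tex10 is a nuclear protein known from ribosome assembly and from self-renewal of pluripotent cells.

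HA-Tex10 was found no more than 1 kb from a transcription start site (TSS) of 5 of the 10 genes, Kmt2a, Kmt2d, Setd1a, Wdr5 and Ash2l, each with 1 interval there. The share was 50% (95% Wilson interval 23.7 to 76.3%, counting error over 10 genes only), against 8.66% of all protein-coding genes. Kmt2b, Kmt2c, Setd1b, Rbbp5 and Dpy30 had none. The reference sequences under the intervals are printed here because they are the places where Tex10 was found at these genes. Each is written on the strand of its gene, 5′ to 3′, from GRCm38, and capitals mark the exact short words searched for below. At Ash2l only the intronic stretch of the interval is shown, and the Setd1a interval lies in a 5′ UTR and is described without its letters.
Kmt2a, chr9:44880439-44880600, minus strand: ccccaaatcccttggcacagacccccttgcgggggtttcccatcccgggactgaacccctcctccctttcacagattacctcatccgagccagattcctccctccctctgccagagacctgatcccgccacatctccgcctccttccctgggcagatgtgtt
Kmt2d, chr15:98872122-98872342, minus strand: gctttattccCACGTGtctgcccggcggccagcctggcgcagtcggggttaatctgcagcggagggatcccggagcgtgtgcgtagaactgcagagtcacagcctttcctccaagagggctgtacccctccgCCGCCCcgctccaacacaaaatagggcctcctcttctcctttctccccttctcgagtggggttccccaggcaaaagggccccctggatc
Wdr5, chr2:27514956-27515082, plus strand: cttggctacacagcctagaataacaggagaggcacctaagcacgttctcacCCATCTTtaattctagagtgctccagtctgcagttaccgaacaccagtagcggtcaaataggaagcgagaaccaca
Ash2l, chr8:25847310-25847578, minus strand: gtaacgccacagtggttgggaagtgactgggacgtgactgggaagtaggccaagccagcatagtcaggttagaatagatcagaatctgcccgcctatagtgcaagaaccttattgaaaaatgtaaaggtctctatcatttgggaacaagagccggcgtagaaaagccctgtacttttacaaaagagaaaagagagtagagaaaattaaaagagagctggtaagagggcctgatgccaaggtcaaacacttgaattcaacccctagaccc

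At Kmt2b and Kmt2c, which had no HA-Tex10 interval, the main TSS fell in a gap between H3K4me3 intervals. The sequence of the gap upstream of the TSS is shown for contrast with the intervals above, whole at Kmt2b and as the 300 bp next to the TSS at Kmt2c.
Kmt2b, chr7:30588727-30588915, minus strand: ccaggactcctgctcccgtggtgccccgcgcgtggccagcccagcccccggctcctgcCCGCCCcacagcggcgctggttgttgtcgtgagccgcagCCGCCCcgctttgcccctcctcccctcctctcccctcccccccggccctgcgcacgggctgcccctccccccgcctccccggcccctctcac
Kmt2c, chr5:25498756-25499055, minus strand: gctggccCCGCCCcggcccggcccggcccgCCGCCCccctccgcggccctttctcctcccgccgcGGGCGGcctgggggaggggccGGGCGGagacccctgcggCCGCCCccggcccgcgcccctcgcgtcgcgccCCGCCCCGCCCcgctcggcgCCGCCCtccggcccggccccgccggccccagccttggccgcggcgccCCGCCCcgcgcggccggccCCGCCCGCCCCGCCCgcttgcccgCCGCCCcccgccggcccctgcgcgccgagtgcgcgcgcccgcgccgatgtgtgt

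The intervals at Wdr5, Setd1a and Ash2l were less rich in G and C than is usual for HA-Tex10 at promoters. The GC content was 48.8% over 127 bp at Wdr5, 52.1% over 144 bp at Setd1a and 47.0% over 328 bp at Ash2l, while windows of the same lengths centred on the 1773 HA-Tex10 intervals at a TSS had medians of 62.2%, 62.5% and 61.9%. Kmt2a (61.1%) and Kmt2d (62.9%) were close to the medians for their lengths, 62.3% and 62.4%. The gaps at Kmt2b and Kmt2c were far richer, with 77.9% over 199 bp and 89.1% over 341 bp. The gaps hold a TSS of their gene and the HA-Tex10 intervals do not, so the positions differ. In the 500 bp around the main TSS the GC content was 80.0% at Kmt2b and 79.8% at Kmt2c. With HA-Tex10 it was 79.6% at Kmt2a, 67.0% at Wdr5, 63.4% at Kmt2d, 52.6% at Setd1a and 49.0% at Ash2l. CpG dinucleotides were fewer in all 5 intervals than the median of windows of the same length. They numbered 5 at Kmt2a against a median of 11, 8 at Ash2l against 23 and 4 at Wdr5 against 9. Kmt2d had 13 against 16 and Setd1a 7 against 10. The spread of the windows was not measured.

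Exact words for 10 factors were searched on both strands. These were GCGCATGCG for NRF1, GGGCGG for the SP GC box, CCAAT for NFY, CACGTG for the E-box, TGACGTCA for CREB, CCGGAAG for ETS, AAGATGG for YY1, ATGCAAAT for OCT, CTTTGA for TCF/LEF and CCACNAGGG for CTCF. The Kmt2d interval held 1 E-box word, which was present in 7.73% of the 1773 windows of its length, and 1 GC box, present in 48.6%. The Wdr5 interval held 1 YY1 word, present in 2.82% of windows of 127 bp. At least 1 of the 10 words was present in 71.9% of windows of the Kmt2d length and in 53.3% of windows of the Wdr5 length. None of the 10 words was found in the Kmt2a, Setd1a or Ash2l interval, where 60.7%, 57.0% and 83.8% of windows of the same length held at least 1. The gap at Kmt2b held 2 GC boxes and the longer gap at Kmt2c held 13, some of them overlapping. At least 1 GC box was present in 45.0% of the 1773 windows of the Kmt2b length and in 62.4% of those of the Kmt2c length. These windows are centred on HA-Tex10 intervals. How many GC boxes each held was not tallied, so the counts of 2 and 13 have no background of their own. A match is a description of the letters only.

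Among the catalytic enzymes, 3 of 6 genes had HA-Tex10 at a TSS (Wilson interval 18.8 to 81.2%), against 8.66% of all protein-coding genes. Kmt2a (ENSMUSG00000002028.13, chromosome 9, 44803355 to 44881296, minus strand) had an interval of 162 bp, from 44880439 to 44880600. It lay 266 bp from the nearer of the gene's 2 coding TSS, downstream of both, in an intron, and 811 bp inside the nearer edge of an H3K4me3 interval of 3725 bp. That H3K4me3 interval reached 2056 bp upstream and 1668 bp downstream of the main TSS, taken as the 5′-most coding TSS with H3K4me3 within 1 kb. It also held the TSS of the antisense gene AC061963.1, 432 bp from the main TSS of Kmt2a.

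Setd1a (ENSMUSG00000042308.14, chromosome 7, 127776670 to 127800122, plus strand) had the HA-Tex10 interval nearest to a TSS among the enzymes. It spanned 127776775 to 127776918 (144 bp), 105 bp downstream of the 5′-most TSS, wholly within an exon annotated as 5′ UTR. All 4 coding TSS of the gene lay within 1 kb of it and inside a single H3K4me3 interval of 2491 bp.

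Kmt2d (ENSMUSG00000048154.17, chromosome 15, 98831669 to 98871204, minus strand) had the interval farthest from its own TSS. That interval of 221 bp, from 98872122 to 98872342, lay 918 bp upstream of the gene, close to the edge of the 1 kb window. The TSS of Gm49437, an unverified gene model, and of the lincRNA gene 5730414N17Rik were nearer, at 271 and 302 bp. A single H3K4me3 interval of 3043 bp covered the HA-Tex10 interval, the main TSS of Kmt2d and the TSS of both neighbours. With a 500 bp window Kmt2d was no longer counted and 4 of the 10 genes remained, against 8.08% of all protein-coding genes.

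Of the shared core genes, Wdr5 and Ash2l had HA-Tex10 while Rbbp5 and Dpy30 had none (2 of 4, Wilson interval 15.0 to 85.0%). The share of all protein-coding genes was 8.66%. Wdr5 (ENSMUSG00000026917.15, chromosome 2, 27515157 to 27536535, plus strand) encodes the propeller protein that anchors the enzyme to the core. Its interval of 127 bp, from 27514956 to 27515082, lay 75 bp upstream of the main TSS and inside an H3K4me3 interval of 2416 bp. The other coding TSS of Wdr5, at 27519761, had neither mark within 1 kb. No other annotated TSS lay within 1 kb of the HA-Tex10 interval.

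Ash2l (ENSMUSG00000031575.18, chromosome 8, 25815996 to 25847694, minus strand) encodes a subunit that stimulates the enzyme, and it had 2 marked promoters. The upstream one, a single TSS at 25847694, had an H3K4me3 interval of 1965 bp and the widest HA-Tex10 interval of the 10 genes, 328 bp from 25847310 to 25847637. That interval began 57 bp downstream of the TSS, with 59 bp in a 5′ UTR exon and the rest in an intron. A further HA-Tex10 interval of only 42 bp lay 1298 bp downstream of the same TSS, inside the same H3K4me3 interval. The downstream promoter, with 4 coding TSS from 25840082 to 25840787, had a wider H3K4me3 interval of 2487 bp and no HA-Tex10 within 1 kb. Between the promoters lay 3 short H3K4me3 intervals of 486, 194 and 305 bp. HA-Tex10 thus lay at 1 of the 2 promoters of Ash2l. Chromosome 8 as a whole was rich in HA-Tex10, with an interval at 41.2% of its 741 genes with H3K4me3. Without chromosome 8, and so without Ash2l, the count was 4 genes, and the share over protein-coding genes was 7.60%. What part the chromosome has in the Ash2l intervals was not tested.

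**Figure D1:**
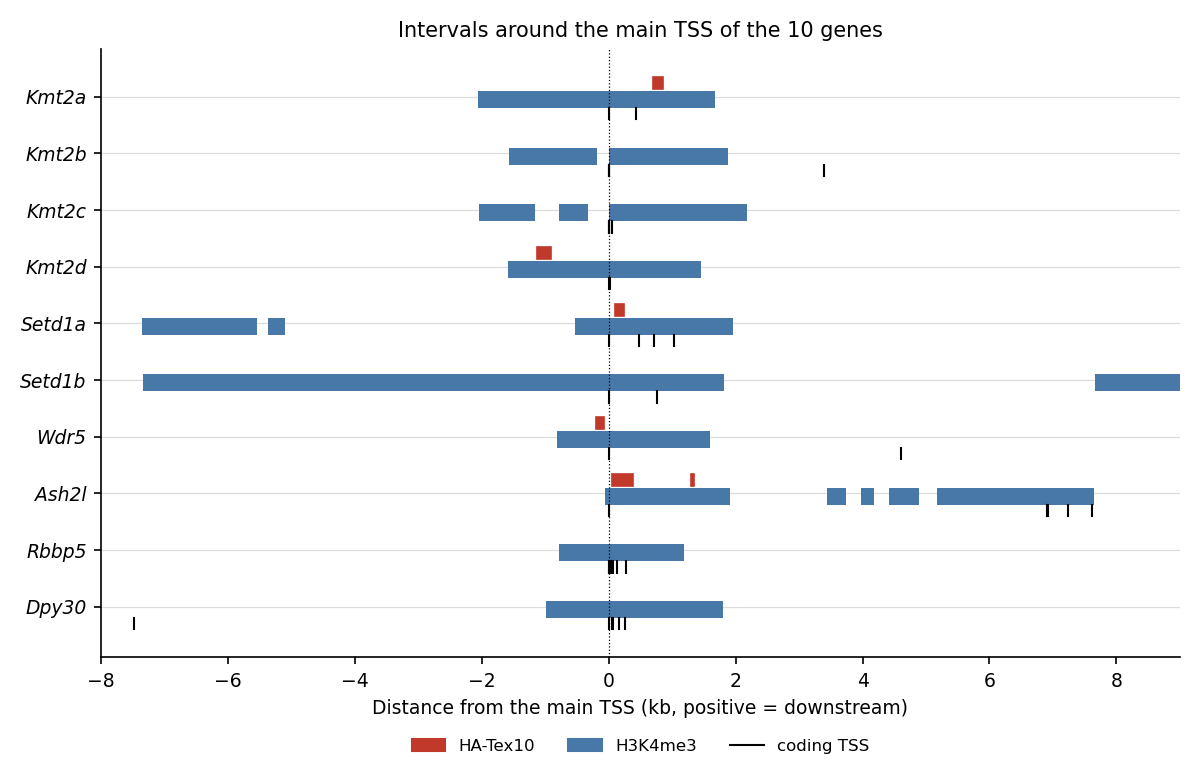
HA-Tex10 intervals (red), H3K4me3 intervals (blue) and coding TSS (black ticks) around the main TSS of each of the 10 genes, by distance in kb along the direction of transcription; intervals beyond the axis are cut off. HA-Tex10 appears at 5 genes, within the blue bar each time, while the H3K4me3 bar of Setd1b reaches 7337 bp upstream and the bars of Kmt2b and Kmt2c leave the TSS in a gap.

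The genes without HA-Tex10 at a TSS were also far from any. The nearest interval lay 30.8 kb from a TSS of Kmt2c, 64.7 kb from Setd1b, 150 kb from Kmt2b, 204 kb from Dpy30 and 346 kb from Rbbp5. For all genes with H3K4me3 and no HA-Tex10 at a TSS the median distance was 152 kb. No value of the 10 genes fell between 918 bp and 30.8 kb, and a 2.5 kb window gave the same 5 genes as 1 kb. Tex10 at these promoters was not detectable with the depth and threshold behind the list, which does not show that it was absent.

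The surroundings of the 10 genes differed in how much HA-Tex10 they held. Within 500 kb of the main TSS, own intervals included, there were 10 intervals at Ash2l, 9 at Kmt2d, 8 at Setd1a and 6 at Kmt2b, the last of which had none at its own TSS. Setd1b had 4, Kmt2a and Kmt2c had 3 each and Wdr5 had 2, and Rbbp5 and Dpy30 had 1 each. The median over all genes with H3K4me3 was 2. The counts of the 5 genes with HA-Tex10 include the intervals that define them, so these counts cannot compare them with the other 5. Of the other genes with H3K4me3 within 1 Mb, the share with HA-Tex10 was 26.3% around Ash2l, 23.3% around Kmt2d, 21.1% around Setd1a, 15.8% around Kmt2a and 13.0% around Wdr5. Around the genes without it the share was 14.9% at Kmt2b, 14.3% at Kmt2c, 10.5% at Setd1b, 1 of 10 genes at Dpy30 and 4.17% at Rbbp5. The part of the surroundings in the counts at the 10 genes was not tested.

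**Figure D2:**
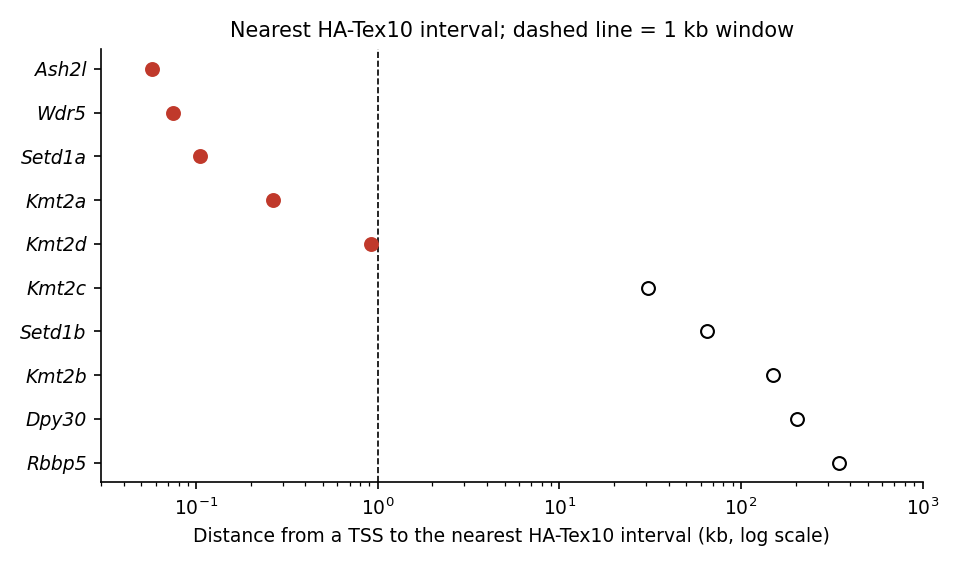
Distance from the closest coding TSS of each of the 10 genes to the nearest HA-Tex10 interval, in kb on a log axis, with the 1 kb window as a dashed line and filled points for genes inside it. The filled points run from 57 bp at Ash2l to 918 bp at Kmt2d, and the open points from 30.8 kb at Kmt2c to 346 kb at Rbbp5.

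Every one of the 10 genes had H3K4me3 within 1 kb of a TSS, against 60.9% of all protein-coding genes. Among genes with H3K4me3 there, 13.9% had HA-Tex10, and 14.3% of those with 2 or more coding TSS did. The 10 genes had a median of 4 coding TSS, against 2 for all genes with H3K4me3. Their H3K4me3 intervals were wide. The widest interval at a TSS had a median of 2489 bp over the 10 genes, from 1870 bp at Kmt2b to 9150 bp at Setd1b, against 1342 bp over the 13306 genes with H3K4me3. All 10 exceeded that median and 9 exceeded the upper quartile of 1967 bp. HA-Tex10 was more frequent at wide intervals in general: 22.4% of the 3711 genes with an interval of at least 1870 bp had it. Whether the width has a part in the 5 of 10 was not tested.

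Setd1b (ENSMUSG00000038384.16, chromosome 5, 123142193 to 123168629, plus strand) had the third widest H3K4me3 interval at a TSS of any gene, after Rarg (10202 bp) and Trim71 (9464 bp), and no HA-Tex10. It spanned 123134856 to 123144005, 7337 bp upstream and 1812 bp downstream of the main TSS. TSS of 3 lincRNA genes lay inside it, AI480526 on the opposite strand with its nearest TSS 527 bp away, 4932422M17Rik at 3262 bp and Gm38102 at 6432 bp, so the interval is shared between promoters. A separate H3K4me3 interval of 1646 bp lay in the gene body, 6903 bp from the nearest coding TSS of Setd1b.

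The remaining wide intervals were at genes of both kinds. As percentiles of all genes with H3K4me3, Kmt2a stood at 97.5, Kmt2d (3043 bp) at 94.0, Dpy30 (2795 bp) at 91.6, Setd1a at 87.4, Ash2l at 87.3 and Wdr5 at 86.1. Kmt2c (2179 bp) followed at 81.0, Rbbp5 (1982 bp) at 75.5 and Kmt2b (1870 bp) at 72.1. The 5 genes with HA-Tex10 ranged from 2416 to 3725 bp and the other 5 from 1870 to 9150 bp, so the ranges overlapped. Their medians were 2491 and 2179 bp. At Ash2l the widest interval (2487 bp) is that of the downstream promoter, which has no HA-Tex10. The H3K4me3 interval that holds the HA-Tex10 of Ash2l was 1965 bp, narrower than the 2416 bp at which the range of the 5 genes begins.

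**Figure D3:**
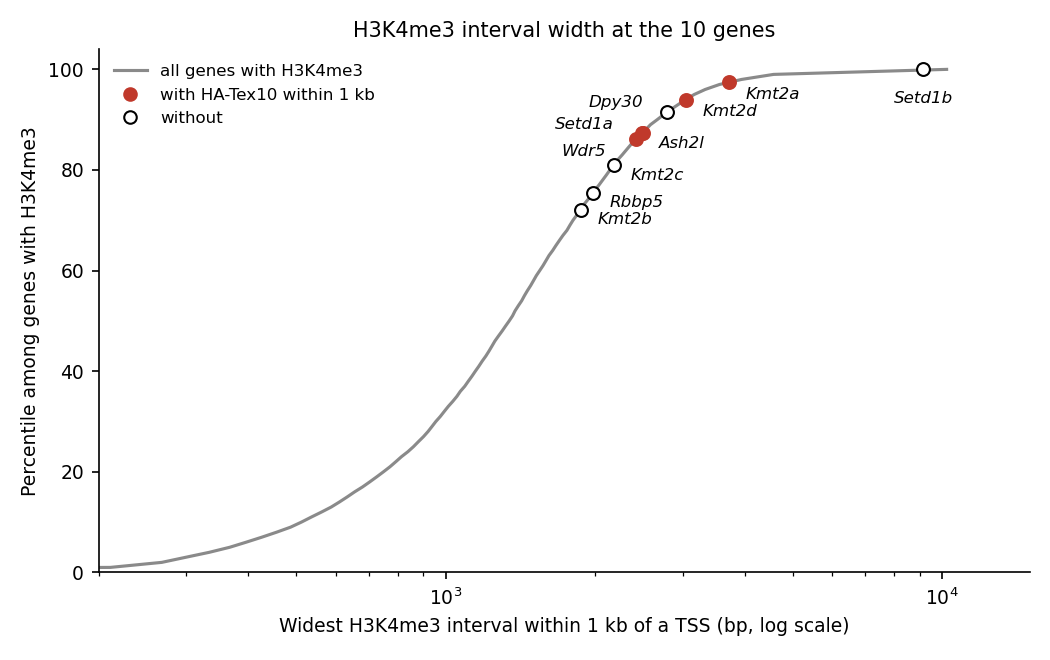
Width of the widest H3K4me3 interval within 1 kb of a TSS (bp, log axis) against its percentile among the 13306 genes with H3K4me3 (grey curve), with filled points for genes that have HA-Tex10 within 1 kb and open points for those that do not. The 10 genes lie between Kmt2b at percentile 72.1 (1870 bp) and Setd1b at the top (9150 bp), and the filled and open points overlap. The filled point of Ash2l shows the width at its downstream promoter (2487 bp), while its HA-Tex10 lies in the interval of 1965 bp at its upstream promoter.

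Kmt2b (ENSMUSG00000006307.16, chromosome 7, 30568858 to 30588726, minus strand) and Kmt2c (ENSMUSG00000038056.15, chromosome 5, 25271798 to 25498783, minus strand) had a main TSS in an unmarked gap. At Kmt2b the gap was 199 bp, between intervals of 1870 and 1389 bp. The main TSS, at 30588726, lay next to the downstream interval, which reaches to 30588716, and 190 bp from the upstream one. That upstream interval held the start of the microRNA gene Mir3569. At Kmt2c the gap was 341 bp, between intervals of 2179 and 453 bp. The main TSS, at 25498755, lay 335 bp from the upstream interval and next to the downstream one, which reaches to 25498748. Another 2 TSS lay inside the downstream interval. The divergent lincRNA gene 4831440E17Rik starts in that gap, 23 bp from the upstream interval. Over all genes with H3K4me3, 593 (4.46%) had their main TSS in such a gap, with a median gap of 264 bp, and 18.2% of these had HA-Tex10 at a TSS. Joining neighbours within 1 kb raised the Kmt2b width to 3458 bp, the Kmt2c width to 4238 bp and the Ash2l width from 2487 to 4218 bp.

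Rbbp5 (ENSMUSG00000026439.14, chromosome 1, 132477365 to 132505659, plus strand), a core scaffold subunit, had the simplest pattern, 1 H3K4me3 interval of 1982 bp covering all 6 coding TSS. That interval also held the TSS of 6030442K20Rik, a processed-transcript gene on the opposite strand that starts upstream of Rbbp5. Dpy30 (ENSMUSG00000024067.14, chromosome 17, 74299474 to 74323944, minus strand), the small subunit that binds Ash2l, also had 6 coding TSS. An interval of 2795 bp covered 5 of them, between 74316203 and 74316463. The 5′-most TSS, at 74323944, had no H3K4me3 within 1 kb.

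Within the gene bodies and 10 kb on each side, the 10 genes held 6 HA-Tex10 and 29 H3K4me3 intervals. The genes with HA-Tex10 in this larger region were the same 5, against 16.9% of all protein-coding genes. In the third quartile of gene length, where 8 of the 10 lie, 18.6% of genes had an interval, and in the longest quartile, with Kmt2a and Kmt2c, 16.9% did. Kmt2c, at 226986 bp the longest of the 10, held none. H3K4me3 was present in the larger region of all 10, against 70.7% of protein-coding genes. Of the 29 H3K4me3 intervals, 13 lay within 1 kb of a TSS of the 10 genes, and others covered start sites of neighbours such as Lin37 beside Kmt2b, Prkag1 beside Kmt2d, Orai3 beside Setd1a and Memo1 beside Dpy30.

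All 6 HA-Tex10 intervals overlapped H3K4me3, and each lay wholly inside an interval. Over all 4238 HA-Tex10 intervals, at a TSS or not, 69.3% overlapped one by at least 1 bp. At promoters both marks together were the rule. Of the 1893 protein-coding genes with HA-Tex10 within 1 kb of a TSS, 1856 had H3K4me3 within 1 kb of a TSS too, and 5 of the 6 intervals lay there. None of the 6 held a 32-base word that occurs more than once on the chromosomes. Of all 4238, at a TSS or not, 1681 (39.7%) were mostly made of such words. Leaving those out lowered the share of protein-coding genes with HA-Tex10 at a TSS only from 8.66% to 8.19%, so few promoter calls rested on them. Apart from the one of 328 bp at Ash2l, the 6 intervals were narrow. The 5 at a TSS ranged from 127 to 328 bp with a median of 162 bp, against 233 bp over all 1773 HA-Tex10 intervals at a TSS. Keeping only intervals wider than the list median of 234 bp left 1 of the 10 genes, Ash2l, and lowered the share of all genes from 8.66% to 4.61%. By centre, the intervals of Kmt2a, Setd1a and Ash2l lay 346.5, 176.5 and 220.5 bp downstream of the nearest TSS, and those of Wdr5 and Kmt2d 138 and 1028 bp upstream. The median distance over all 1773 was 145 bp, with 44.9% downstream.

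Promoter composition differed widely among the 10. In the 500 bp around the main TSS the GC content ran from 49.0% at Ash2l, 52.4% at Rbbp5 and 52.6% at Setd1a to 79.6% at Kmt2a, 79.8% at Kmt2c and 80.0% at Kmt2b. The median was 66.6%, against 63.2% for all genes with H3K4me3. Genes with HA-Tex10 stood at both ends of this range.

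A wider list of 36 genes that act in H3K4 methylation was read in the same way. HA-Tex10 lay within 1 kb of a TSS of 7 (19.4%, Wilson interval 9.75 to 35.0%), and H3K4me3 of 34. The background was 8.66% of all protein-coding genes and 13.9% of those with H3K4me3 for HA-Tex10, and 60.9% for H3K4me3. Among subunits found in single complexes, 2 of 12 had HA-Tex10. Pagr1a, part of the Kmt2c and Kmt2d complexes, had an interval of 359 bp over a TSS. Hcfc1, a partner of several of the enzymes, had one of 65 bp that lay 642 bp from a TSS and overlapped no H3K4me3 interval. Of the other SET-domain genes 1 of 6 had an interval, Kmt2e, with 338 bp at a distance of 278 bp. Readers of H3K4 methylation had intervals at 4 of 12 genes. These were Taf3 (196 bp), a subunit of the general factor TFIID, Sgf29 (188 bp), a SAGA subunit, and Ing1 and Ing2, which have PHD fingers that bind H3K4me3. Ing1 had 2 intervals of 492 and 465 bp and Ing2 had 1 of 505 bp. The H3K4 demethylases had 0 of 6, for which the Wilson interval reaches 39.0%. Of the genes in the wider list, 4 lie on chromosome X, where HA-Tex10 was found at a TSS of only 1 of 339 genes with H3K4me3. The class counts are not adjusted for this. Smyd1, known from muscle, and Kdm5d were the genes of the list without H3K4me3. Kdm5d is on the Y chromosome, where only 1 protein-coding gene had H3K4me3 at a TSS. With only wide HA-Tex10 intervals the count of genes with HA-Tex10 fell from 7 to 4.

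**Figure D4:**
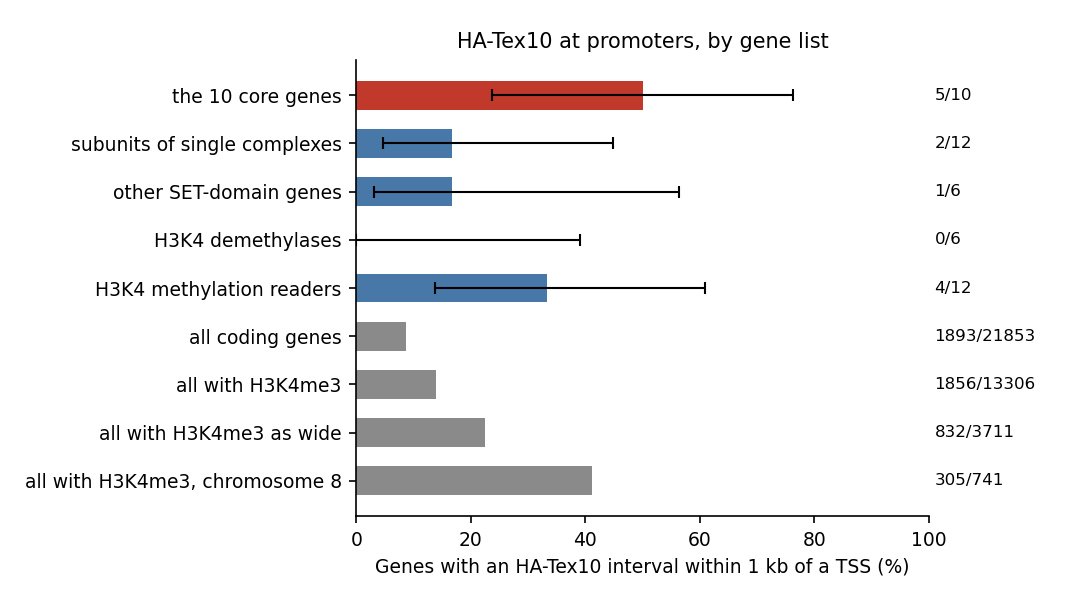
Share of genes (%) with HA-Tex10 at a distance of at most 1 kb from a TSS, for the 10 core genes (red), the other lists of H3K4 genes (blue) and larger sets of protein-coding genes (grey), with the counts at the right and 95% Wilson intervals as lines on the gene lists. The core genes stand at 5 of 10 and the demethylases at 0 of 6, and the lines of the small lists overlap.

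As a check of the cell type, H3K4me3 lay within 1 kb of a TSS of 10 of 12 germ cell and pluripotency markers, Prdm1, Prdm14 and Tfap2c included and Dppa3 and Nanos3 not. It lay there at 1 of 10 markers of other cell types, Myod1, with an interval of 108 bp. Over all protein-coding genes the share was 60.9%. There was no sample of pluripotent cells, so the H3K4me3 mark at these genes cannot tell PGCLCs from them here.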

How the data were processed

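Interval lists for HA-Tex10 (4331 intervals) and H3K4me3 (29072 intervals) were used as the authors deposited them, in bp, with empty score and strand columns. The submitters' processing notes name Bowtie2 2.3.4.3, SAMtools 1.9, MACS2 2.1.2, HOMER and the build mm10. How replicates were combined, the peak threshold and the use of the input samples are not given in the sources used here. A further deposited list held the HA-Tex10 intervals overlapping H3K4me3 (2990 distinct, 0 mismatches) and served only as an alternative.

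Intervals on 21 assembled chromosomes were compared with coding-transcript TSS of GENCODE M21. A gene counted if an interval came within 1 kb of a TSS. Repeated sequence meant over 50% of 32-base words found more than once. The counting was tested on planted intervals. Python 3.11.15, scipy 1.17.1 and matplotlib 3.10.9 were used. No test was run, since each antibody has a single list. The rule named the 10 genes, listed genes with HA-Tex10 or without H3K4me3, and neighbours. The members, lists and words were chosen with earlier results of these data known. Gm49437, Rarg, Trim71 and the genes beside H3K4me3 intervals were named after their values were seen.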

Additional observations from a re-analysis of the deposited data

How the results depend on the processing

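No paired analysis was possible because the lists name no replicates, so none could be left out either. Of 52 counts, shares and medians under alternatives, 38 stayed within their limits (a factor of 1.5 for counts, the Wilson interval for shares) and 14 moved. The limits are loose for small counts and narrow for shares over 21853 genes, so this tally mixes unlike limits. Of 20 widths at single genes 5 moved, Ash2l to 4218 bp when neighbours were joined and 4452 bp when summed, Kmt2b to 3458 and 3259 bp, and Kmt2c to 4238 bp when joined. Alternatives for all genes changed the HA-Tex10 share from 8.66% to 8.08% (500 bp window), 9.51% (2.5 kb), 8.02% (intervals overlapping H3K4me3), 8.19% (no repeated intervals), 7.60% (no chromosome 8) and 4.61% (wide intervals only), and the H3K4me3 share from 60.9% to 62.2% (2.5 kb), 61.6% (all transcripts), 59.6% (no repeated intervals) and 49.8% (wide only). Wide HA-Tex10 intervals alone left 1 of the 10 genes, 4 of the 36 others and 1 interval in the larger regions. Counting gene bodies without flanks left 15 H3K4me3 intervals. Leaving out chromosome 8, an alternative added after seeing the data, also took Ash2l, Ing1 and Ing2 off the lists. HA-Tex10 was left at 4 of the remaining core genes and 5 of the remaining genes of the wider list.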

Other observations

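HA-Tex10 at the 46 genes read here was unevenly spread over chromosomes. On chromosome 8 all 3 of them had it (Ash2l, Ing1 and Ing2), where 41.2% of 741 genes with H3K4me3 did. On chromosome 7 it was found at 3 of 4, Sgf29, Pagr1a and Setd1a, whose main TSS lie within 1.13 Mb of each other. Within 1 Mb of Setd1a, 15 of 71 other genes with H3K4me3 (21.1%) had HA-Tex10, compared with 15.5% of such genes on the whole chromosome. On chromosome X, Hcfc1 was the 1 gene of 339 with H3K4me3 with HA-Tex10 at a TSS. These 3 groups were noticed after the values were seen and were not tested.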
